A study of Mus musculus with 31 samples.

Results

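The hedgehog genes described here are 8: the ligand gene Dhh, the receptor gene Ptch1, the ligand-binding inhibitor gene Hhip, the transducer genes Smo, Gli1, Gli2 and Gli3, and Pdgfra, which codes for a receptor of the interstitial cells that receive the signal. They were taken by name out of 18194 genes measured on the arrays, each read from its brightest probe set (by the mean of 31 arrays) among those annotated with that symbol and no other. The 8 genes have 21 such probe sets. In every one of the 8 genes the chosen probe set averaged above a low-signal limit of 5.39, the 40th percentile of all log2 signals.

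The samples were fetal mouse gonads, of 3 ages (12, 14 and 16 days after mating, written dpc) and of Wv/Wv or wild-type genotype. Both Kit copies of a Wv/Wv embryo hold the Wv base change, which lowers the kinase activity of this stem cell factor receptor. Wv/Wv testes gave 3, 2 and 3 arrays at 12, 14 and 16 dpc, wild-type testes 1, 3 and 3, Wv/Wv ovaries 2, 3 and 3, and wild-type ovaries 2, 3 and 3. The labels number the arrays of a group as biological replicates but name neither embryos nor pools, and the p-values reflect only the spread of these samples. Wv is carried by every cell of the mutant embryo, not by its germ cells alone, and no strain is given in the labels.

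In the hedgehog pathway, Patched holds the membrane protein Smoothened off until a hedgehog ligand binds Patched, and Smoothened then turns the GLI transcription factors from repressors into activators. Ptch1, Hhip and Gli1 are themselves transcribed when the pathway is active and are the usual readouts of it. In the fetal testis the Sertoli cells inside the cords secrete desert hedgehog, and the interstitial cells outside the cords, among them the precursors of fetal Leydig cells and peritubular cells, carry the receptor and respond. In bulk gonad RNA, fewer cells of a type and less RNA per cell cannot be told apart.

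Dhh, Ptch1, Hhip and Gli2 were each called higher in wild-type testes than ovaries of 14 and 16 dpc, and the bases before the transcript start of these genes are shown. They come from RefSeq promoter windows of build GRCm38.p6, which matched 7 of the 8 members by symbol (all but Gli1), and each line holds the 250 bases before the start, 5′ to 3′ on the strand of the gene. The Dhh window lies at chr15:98898541-98898790, that of Ptch1 at chr13:63565736-63565985, that of Hhip at chr8:80058009-80058258 and that of Gli2 at chr1:119053620-119053869, all on the minus strand. Capitals mark the GC box GGGCGG and the core ACCACCC of the GLI binding sequence, on either strand. Gli1 and Pdgfra were called in the same comparisons too. The Pdgfra window, which held 0 matches of either sequence, is not printed.
Dhh: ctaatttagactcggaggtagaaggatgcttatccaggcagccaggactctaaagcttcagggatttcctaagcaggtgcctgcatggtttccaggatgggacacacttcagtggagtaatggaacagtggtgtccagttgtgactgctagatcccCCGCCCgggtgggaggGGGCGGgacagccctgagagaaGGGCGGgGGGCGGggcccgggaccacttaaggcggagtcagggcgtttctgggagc
Ptch1: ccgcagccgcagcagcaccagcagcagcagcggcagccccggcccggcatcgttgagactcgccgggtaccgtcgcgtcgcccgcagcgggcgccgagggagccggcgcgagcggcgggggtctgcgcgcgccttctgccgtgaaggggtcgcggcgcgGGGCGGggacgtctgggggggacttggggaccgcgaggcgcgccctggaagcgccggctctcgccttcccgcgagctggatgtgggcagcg
Hhip: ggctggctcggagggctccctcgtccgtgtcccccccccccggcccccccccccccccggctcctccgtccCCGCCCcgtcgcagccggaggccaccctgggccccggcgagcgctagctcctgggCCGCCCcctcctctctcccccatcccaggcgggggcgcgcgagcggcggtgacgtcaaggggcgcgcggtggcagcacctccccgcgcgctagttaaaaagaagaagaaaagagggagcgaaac
Gli2: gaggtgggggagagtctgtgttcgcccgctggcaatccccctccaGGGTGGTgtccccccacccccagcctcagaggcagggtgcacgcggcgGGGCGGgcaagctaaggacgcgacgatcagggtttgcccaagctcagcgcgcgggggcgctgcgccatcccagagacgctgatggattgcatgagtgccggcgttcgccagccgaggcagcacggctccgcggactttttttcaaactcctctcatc
In windows that also hold the 50 bases after the start, the GC box was found in 5 of the 7 members, with 4 matches in Dhh, 2 each in Hhip and Gli3 and 1 each in Ptch1 and Gli2, against 35.7% of 32851 mouse promoters. The GLI core was found in 1 of 7, Gli2, against 4.61% of all promoters, and the longer GLI sequence GACCACCCA in 0 of 7, against 0.253%. The letters AAGGTCA, bound by the steroidogenic factor NR5A1, and the GATA element AGATAA were in 0 of 7, and the SOX element ACAAAG in 1, Smo, against 4.72%, 11.2% and 18.7% of all promoters. These counts describe the letters of these short windows. The annotated extents of Ptch1 and Gli2 reach upstream past the windows shown, and those of Dhh and Hhip reach into theirs.

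The arrays fell into 2 sets. On 21 arrays the SD of all log2 signals was 2.33 to 2.39, and on 10 narrow-spread arrays it was 1.77 to 2.18. The 3′ probe set of Gapdh exceeded its 5′ probe set by 2.01 ± 0.19 (SD, n = 21) and by 0.70 ± 0.19 (SD, n = 10) log2 units on them. The narrow-spread arrays were array 1 of Wv/Wv testes at 16 dpc, array 2 of Wv/Wv testes at 14 dpc, array 1 of wild-type testes at 16 dpc, arrays 2 and 3 of Wv/Wv ovaries at 14 dpc, array 2 of Wv/Wv ovaries at 16 dpc, array 1 of wild-type ovaries at 14 dpc and all 3 of wild-type ovaries at 16 dpc. The labels do not say what set them apart. The single wild-type testis array at 12 dpc read 8.73 for Prl8a2, a placental prolactin-family gene, against at most 5.98 on the other 30 arrays. Of the marker lists, pregranulosa genes were lower in testes than in ovaries for 7 of 7 genes at 14 and 16 dpc in both genotypes, and Sertoli genes were higher for 8 of 10 at 14 dpc in both. Germ cell genes were lower in Wv/Wv than in wild type for 6 of 6 genes at 14 dpc in testes and in ovaries.

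Dhh, the ligand of Sertoli cells, was far higher in testes than in ovaries at every age and in both genotypes, 12.1-fold to 24.6-fold over the 6 comparisons. At 12 dpc the log2 signal was 10.59, 8.79 and 9.10 on the Wv/Wv testis arrays, against 5.70 and 5.81 on the Wv/Wv ovary arrays. In wild-type gonads of that age it was 10.25 on the single testis array, against 5.90 and 5.97 on the ovary arrays. All 4 testis arrays of 12 dpc thus lay above every ovary array, and the ligand was present in testes at the youngest age sampled. At 14 dpc Dhh read 10.32 and 10.66 in Wv/Wv testes, against 5.48, 6.33 and 6.92 in Wv/Wv ovaries. Wild-type gonads of 14 dpc gave 10.47, 10.45 and 10.27 in testes, against 6.04, 5.53 and 5.77 in ovaries. Testis arrays agreed closely at this age, and the ovary arrays stood near the low-signal limit. At 16 dpc the signal was 9.72, 9.87 and 9.99 in Wv/Wv testes, against 5.21, 5.93 and 6.06 in Wv/Wv ovaries. It was 9.46, 10.19 and 10.02 in wild-type testes of 16 dpc, against 6.87, 6.04 and 5.95 in wild-type ovaries. The groups did not overlap at any age.

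The difference of Dhh between testis and ovary was 3.74 ± 0.42, 4.25 ± 0.42 and 4.12 ± 0.37 log2 units (± SE) at 12, 14 and 16 dpc in Wv/Wv, and 4.31 ± 0.56, 4.62 ± 0.37 and 3.60 ± 0.37 in wild type. The adjusted p of these 6 differences was at most 0.000245 in limma fitted over all genes, where a gene is called at an adjusted p below 0.05. At 12 dpc Dhh was the only 1 of the 8 members called in either genotype, where 0.374% of all genes were called in Wv/Wv and 0.253% in wild type. At that age the arrays did not overlap, with testes higher, for 6 members in Wv/Wv and for 4 in wild type with its single testis array, against 22.4% and 36.9% of all genes. Both 12 dpc calls were lost when only the arrays compared were fitted (adjusted p = 0.166 in Wv/Wv and 0.0569 in wild type), with differences of 3.20 to 4.10 and 4.25 to 4.35 over the other settings of the same probe set. Ovarian Dhh signals sit at the low end of the scale, so the folds are folds of array signal.

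Ordered by level, all 6 testis groups lay above all 6 ovary groups for Dhh, and the step between them, 3.21 log2 units from Wv/Wv testes at 12 dpc to wild-type ovaries at 16 dpc, was larger than the SD of both groups. Among testis groups only the step from wild-type testes at 14 dpc (10.40 ± 0.11, SD, n = 3) to the single wild-type testis array at 12 dpc (10.25) exceeded the SD of its group. No step between neighbouring ovary groups did. Within Wv/Wv testes at 12 dpc, array 1 read higher for Dhh than arrays 2 and 3, and the mean of 10 Sertoli genes was 8.08 on array 1, against 7.10 and 7.11 on arrays 2 and 3. On the same 3 arrays the mean of 4 mesonephros and tubule genes was 7.02, 8.14 and 8.29. The part of these other tissues in the Dhh spread was not tested.

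**Figure D1:**
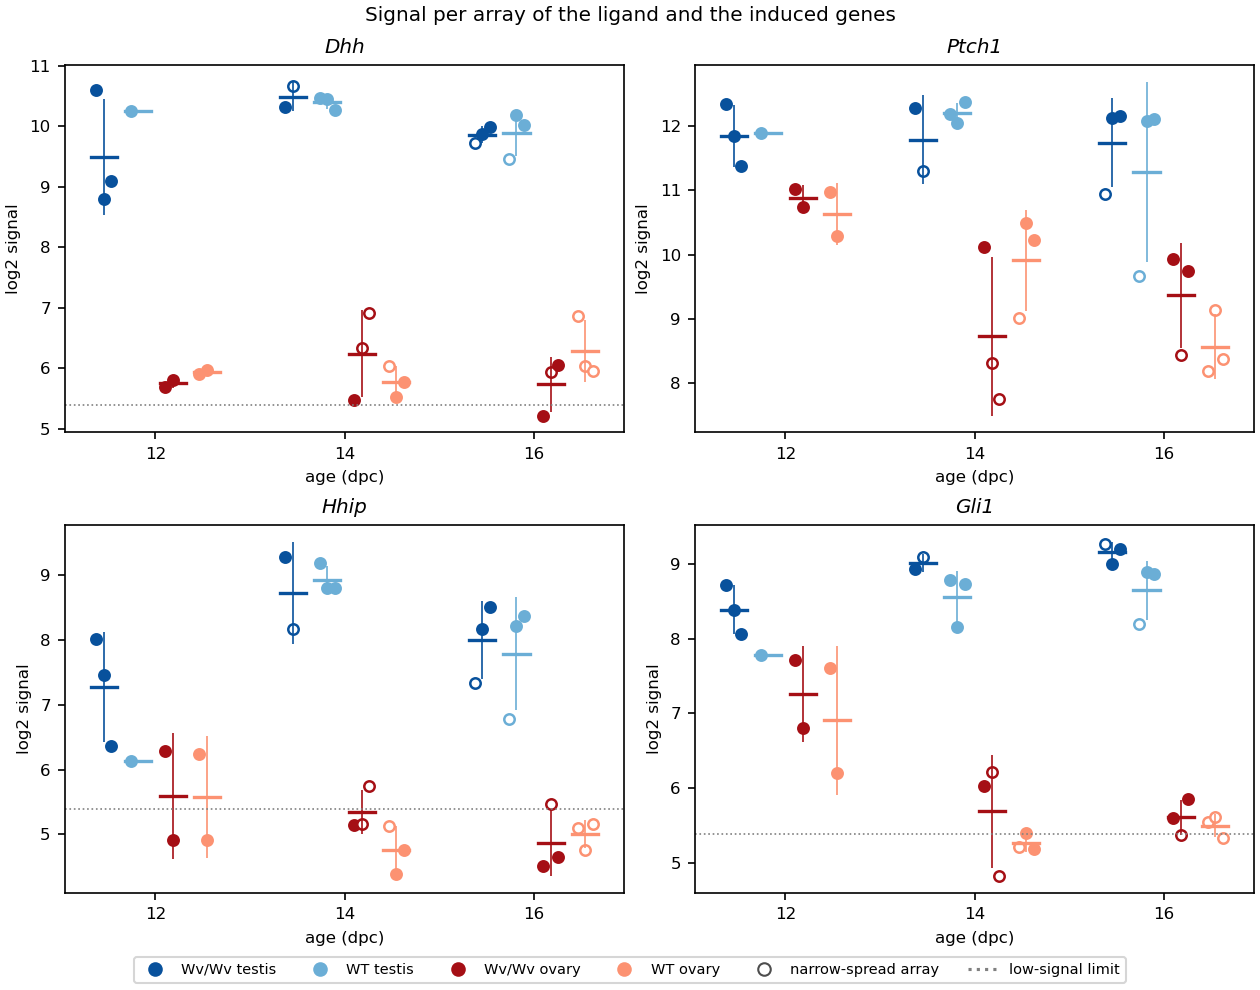
Log2 signal (vertical axis) of Dhh, Ptch1, Hhip and Gli1 on each of the 31 arrays against age in dpc (horizontal axis); bars are group means, lines the SD, open points narrow-spread arrays and the dotted line the low-signal limit of 5.39. Dhh separates testes from ovaries at 12 dpc already, while the other genes overlap or lie close at 12 dpc and stand apart within each genotype at 14 and 16 dpc.

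Ptch1, the receptor of the ligand, was not called between the sexes at 12 dpc and was higher in testes at 14 and 16 dpc in both genotypes. At 12 dpc it read 12.34, 11.84 and 11.37 in Wv/Wv testes, against 11.03 and 10.74 in Wv/Wv ovaries. The wild-type testis array of 12 dpc read 11.90 for Ptch1, against 10.97 and 10.29 in wild-type ovaries. The testis arrays were above the ovary arrays of their genotype, but the differences of 0.97 ± 0.68 and 1.27 ± 0.91 did not pass the test (95% intervals -0.44 to 2.37 and -0.62 to 3.15). Among the 21 arrays of wider spread alone, the Wv/Wv difference of 0.97 ± 0.24 passed it (adjusted p = 0.0402). At 14 dpc Ptch1 read 12.28 and 11.30 in Wv/Wv testes, against 10.11, 8.32 and 7.75 in Wv/Wv ovaries. In wild type the 14 dpc readings were 12.19, 12.04 and 12.37 in testes, against 9.01, 10.49 and 10.23 in ovaries. No ovary array reached a testis array, and within ovaries of 14 dpc the 3 narrow-spread arrays were the 3 lowest. At 16 dpc the Ptch1 signal was 10.95, 12.13 and 12.16 in Wv/Wv testes, against 9.93, 8.43 and 9.74 in Wv/Wv ovaries. Wild-type testes of 16 dpc read 9.66, 12.09 and 12.10 for Ptch1, against 8.18, 9.15 and 8.37 in wild-type ovaries. Within each genotype the groups again did not overlap, although the narrow-spread array 1 of wild-type testes stood well below the other 2 of its group.

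The Ptch1 difference at 14 dpc was 3.06 ± 0.68 in Wv/Wv (8.36-fold, adjusted p = 0.00773) and 2.29 ± 0.61 in wild type (4.90-fold, adjusted p = 0.0216). At 16 dpc it was 2.37 ± 0.61 in Wv/Wv (5.19-fold, adjusted p = 0.0144) and 2.72 ± 0.61 in wild type (6.57-fold, adjusted p = 0.00445). With the array set as a term in the model, these 4 differences were 2.83 ± 0.28, 1.82 ± 0.26, 2.37 ± 0.25 and 2.10 ± 0.33, with adjusted p of at most 7.83e-05 in limma. That model left out array 1 of wild-type testes at 16 dpc. The remaining testis arrays of that group were of wider spread, while all wild-type ovary arrays of that age were narrow-spread. The wild-type value at 16 dpc thus rests on a term estimated from the other groups. Among narrow-spread arrays alone, with 1 wild-type testis array, that difference was 1.09. Without the term, leaving out 1 array ended several of the Ptch1 calls, though none in wild type at 16 dpc. In Wv/Wv the call was lost at 14 dpc without testis array 1 (2.58) or ovary array 3 (2.57), and at 16 dpc without testis array 2 (2.18) or 3 (2.17) or ovary array 2 (1.91). In wild type it was lost at 14 dpc without testis array 1, 2 or 3 (2.30, 2.37 and 2.21) or ovary array 1 (1.84).

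Hhip, which binds hedgehog ligands at the cell surface and holds them back, was called at 14 and 16 dpc in both genotypes and not at 12 dpc. At 12 dpc its log2 signal was 8.01, 7.45 and 6.36 in Wv/Wv testes, against 6.28 and 4.91 in Wv/Wv ovaries. The wild-type testis array of 12 dpc read 6.13 for Hhip, between the wild-type ovary arrays at 6.25 and 4.91. Neither difference passed the test, at 1.68 ± 0.53 in Wv/Wv (adjusted p = 0.395) and 0.55 ± 0.71 in wild type. At 14 dpc Hhip read 9.28 and 8.17 in Wv/Wv testes, against 5.14, 5.16 and 5.74 in Wv/Wv ovaries. It read 9.18, 8.80 and 8.80 in wild-type testes, against 5.12, 4.40 and 4.76 in wild-type ovaries, all 3 below the low-signal limit. At 16 dpc the Hhip readings were 7.34, 8.16 and 8.51 in Wv/Wv testes, against 4.51, 5.46 and 4.65 in Wv/Wv ovaries. Wild-type testes of 16 dpc gave 6.78, 8.22 and 8.37 for Hhip, against 5.09, 4.76 and 5.17 in wild-type ovaries. Every testis array of 14 and 16 dpc was above every ovary array of those ages.

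In Wv/Wv gonads Hhip was higher in testes by 3.38 ± 0.53 at 14 dpc and by 3.13 ± 0.47 at 16 dpc (adjusted p = 0.000199 and 6.83e-05), with 1 of 3 ovary arrays above the low-signal limit at each age. With array weights the 14 dpc call was lost (3.14, adjusted p = 0.212). In wild type the differences were 4.17 ± 0.47 and 2.78 ± 0.47 (adjusted p = 1.73e-06 and 0.000308). With the dim wild-type ovary arrays set to the low-signal limit, the group means put Hhip at least 11.6-fold higher in testes at 14 dpc and at least 5.28-fold higher at 16 dpc. These bounds cover the dim signal and not the array set. Over the other settings of the same probe set the wild-type differences ran from 3.99 to 4.35 at 14 dpc and from 1.77 to 3.29 at 16 dpc. The value of 1.77 came from narrow-spread arrays alone, with 1 wild-type testis array.

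Gli1, the activator that the pathway induces, was higher in testes at 14 and 16 dpc in both genotypes and was not called at 12 dpc. At 12 dpc it read 8.72, 8.39 and 8.06 in Wv/Wv testes, against 7.71 and 6.81 in Wv/Wv ovaries. The wild-type testis array read 7.78 for Gli1, against 7.61 and 6.21 in wild-type ovaries of 12 dpc. The testis arrays were above the ovary arrays of their genotype, in wild type by little, and the differences of 1.13 ± 0.38 and 0.87 ± 0.51 were not called. At 14 dpc Gli1 read 8.93 and 9.10 in Wv/Wv testes, against 6.03, 6.22 and 4.83 in Wv/Wv ovaries. In wild type it read 8.78, 8.15 and 8.72 in testes of 14 dpc, against 5.21, 5.40 and 5.19 in ovaries. At 16 dpc the Gli1 signal was 9.26, 9.00 and 9.20 in Wv/Wv testes, against 5.60, 5.38 and 5.85 in Wv/Wv ovaries. Wild-type testes read 8.19, 8.89 and 8.86 for Gli1 at 16 dpc, against 5.55, 5.62 and 5.33 in wild-type ovaries. At 14 and 16 dpc every testis array was well above every ovary array.

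The Gli1 difference between testis and ovary was 3.32 ± 0.38 at 14 dpc and 3.54 ± 0.34 at 16 dpc in Wv/Wv, and 3.28 ± 0.34 and 3.15 ± 0.34 in wild type. The highest adjusted p of the 4 was 3.28e-06 in limma. In wild-type ovaries of 14 dpc 1 of 3 arrays was above the low-signal limit for Gli1, and in each of the other 3 ovary groups 2 of 3 were. Over all other settings these 4 differences ran from 2.69 to 3.88, and each kept its call.

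Gli2, which carries most of the activating signal from Smoothened, was higher in wild-type testes than in wild-type ovaries at 14 and 16 dpc. Its log2 signal at 14 dpc was 10.75 and 9.47 in Wv/Wv testes, against 9.56, 7.87 and 7.21 in Wv/Wv ovaries. At the same age it was 10.55, 10.49 and 10.45 in wild-type testes, against 7.26, 8.71 and 8.83 in wild-type ovaries. At 16 dpc Gli2 read 9.44, 10.69 and 10.71 in Wv/Wv testes, against 9.44, 8.01 and 9.63 in Wv/Wv ovaries. It read 8.82, 10.44 and 10.67 in wild-type testes, against 7.71, 7.89 and 7.62 in wild-type ovaries. In every group of 14 and 16 dpc that held both sets of arrays, the narrow-spread ones were the lowest for Gli2, and the Wv/Wv groups overlapped through their narrow-spread testis arrays. In wild type the differences were 2.23 ± 0.55 (4.69-fold, adjusted p = 0.0130) and 2.24 ± 0.55 (4.71-fold, adjusted p = 0.00950). In Wv/Wv they were 1.89 ± 0.62 (adjusted p = 0.109) and 1.25 ± 0.55 (adjusted p = 0.274) and were not called. All wild-type ovary arrays of 16 dpc were narrow-spread. Among narrow-spread arrays alone, with 1 wild-type testis array, the wild-type difference at 16 dpc was 1.08. With the array set as a term, the Wv/Wv differences were 1.64 ± 0.18 (adjusted p = 5.45e-07) and 1.25 ± 0.16 (adjusted p = 2.48e-06), and among the 21 other arrays alone the 16 dpc one was 1.16 ± 0.14 (adjusted p = 3.54e-05). Single arrays moved these calls too: the wild-type one was lost at 14 dpc without testis array 1 (2.2) or ovary array 1 (1.73) and at 16 dpc without testis array 3 (1.89), and the Wv/Wv one was reached at 14 dpc without ovary array 1 (2.57). At 12 dpc Gli2 ran from 10.37 to 10.62 in Wv/Wv testes, against 9.65 and 10.00 in Wv/Wv ovaries, and stood at 10.25 in the wild-type testis, against 9.60 and 9.87 in wild-type ovaries. The differences of 0.65 ± 0.62 and 0.51 ± 0.83 were not called. Among the 21 arrays of wider spread alone the Wv/Wv one was 0.65 ± 0.13 (adjusted p = 0.0147).

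Gli3, the GLI protein that is mostly cut into a repressor when no ligand is present, did not pass the test between the sexes in any of the 6 comparisons. Its differences ran from -0.27 ± 0.34 in wild type at 16 dpc to 0.06 ± 0.38 in Wv/Wv at 14 dpc. At 14 dpc Gli3 read 9.03 and 8.53 in Wv/Wv testes, against 9.36, 8.65 and 8.16 in Wv/Wv ovaries. It read 8.73, 8.99 and 8.83 in wild-type testes of 14 dpc, against 8.53, 9.05 and 8.95 in wild-type ovaries. Testis and ovary arrays were interleaved in both genotypes. Over all ages Gli3 ran from 8.42 to 9.67 in Wv/Wv testes, from 7.04 to 9.29 in wild-type testes, from 8.16 to 9.73 in Wv/Wv ovaries and from 8.18 to 9.63 in wild-type ovaries. The 95% intervals of the 14 dpc differences, -0.73 to 0.85 in Wv/Wv and -0.70 to 0.71 in wild type, leave room for a difference of up to 0.85 log2 units. Smo passes the signal from Patched into the cell. At 14 dpc it read 10.79 and 10.51 in Wv/Wv testes, against 11.00, 10.78 and 10.31 in Wv/Wv ovaries. In wild type of that age it read 10.40, 10.56 and 10.42 in testes, against 10.25, 10.24 and 10.38 in ovaries, a narrow gap with testes above. The Smo differences were -0.05 ± 0.41 in Wv/Wv and 0.17 ± 0.37 in wild type at 14 dpc, and neither passed the test. Outside 1 array its log2 signal stayed between 10.01 and 11.11 in all 12 groups. The exception was array 1 of wild-type testes at 16 dpc, at 8.37, against 10.75 and 10.74 on the other 2 arrays of that group. Gli3 was also lowest on that array, at 7.04, against 8.63 and 8.82. Without it the Smo difference between testis and ovary in wild type at 16 dpc was 0.60 ± 0.17 (adjusted p = 0.0132 in limma), in place of -0.20 ± 0.37 with it. The probe set of Smo ends in _s_at, a suffix for probes that may match more than 1 transcript.

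Pdgfra, the receptor for PDGF that marks interstitial cells and is needed for fetal Leydig cells in the mouse, had a pattern like that of Gli2. At 14 dpc it read 12.84 and 11.94 in Wv/Wv testes, against 12.13, 10.67 and 10.79 in Wv/Wv ovaries. The wild-type readings of 14 dpc were 12.55, 12.39 and 12.53 in testes, against 10.49, 11.31 and 11.26 in ovaries. At 16 dpc Pdgfra read 12.35, 13.21 and 13.08 in Wv/Wv testes, against 12.30, 11.32 and 12.36 in Wv/Wv ovaries. It read 11.49, 12.80 and 13.01 in wild-type testes of 16 dpc, against 10.77, 10.77 and 10.80 in wild-type ovaries. The wild-type groups stood apart and the Wv/Wv groups overlapped. In wild type Pdgfra was higher in testes by 1.47 ± 0.38 at 14 dpc and by 1.66 ± 0.38 at 16 dpc (2.77-fold and 3.15-fold, adjusted p = 0.0195 and 0.00599 in limma). All wild-type ovary arrays of 16 dpc were narrow-spread. Among narrow-spread arrays alone, with 1 wild-type testis array, the wild-type difference at 16 dpc was 0.715. The Wv/Wv differences of 1.19 ± 0.43 and 0.88 ± 0.38 were not called (adjusted p = 0.178 and 0.260), but with the array set as a term they were 1.03 ± 0.13 (adjusted p = 6.34e-06) and 0.88 ± 0.12 (adjusted p = 5.05e-06). Without ovary array 1 the Wv/Wv difference at 14 dpc was 1.66 and was called. The wild-type call at 14 dpc was lost without ovary array 1 (1.21) or testis array 1, 2 or 3 (1.44, 1.52 and 1.45). At 12 dpc the Pdgfra arrays of both sexes and genotypes lay between 11.90 and 12.44, and neither difference was called.

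**Figure D2:**
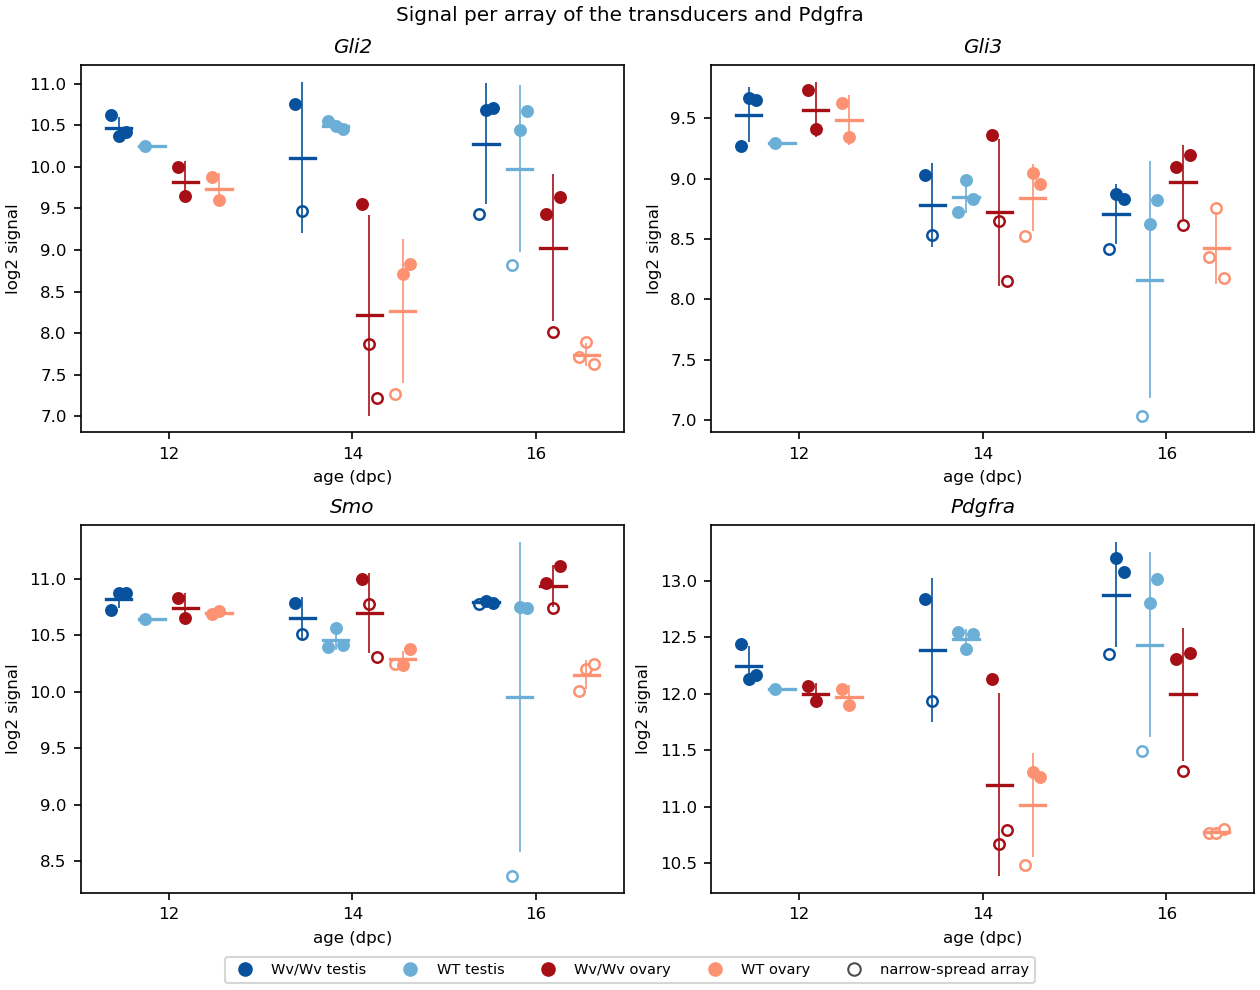
Log2 signal (vertical axis, a different range in each panel) of Gli2, Gli3, Smo and Pdgfra on each array against age in dpc (horizontal axis); bars are group means, lines the SD, and open points narrow-spread arrays. Gli2 and Pdgfra are higher in testes than ovaries of 14 and 16 dpc within each set of arrays, and array 1 of wild-type testes at 16 dpc is the low point for Gli3 (7.04) and Smo (8.37).

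Counted over the 8 members, testes were called higher than ovaries for 4 in Wv/Wv and 6 in wild type at 14 dpc, and for the same numbers at 16 dpc, with 0 called lower in each. With the array set as a term, 6 were called in each of these 4 comparisons. Of all 18194 genes, that model called 2682 in Wv/Wv at 14 dpc and 3728 at 16 dpc, higher or lower. In wild type it called 3270 and 2928. Without the term, 2.32% of all genes were called higher in Wv/Wv testes of 14 dpc and 3.17% in wild-type testes. At 16 dpc these shares were 3.79% and 4.50%. The median difference of the 8 members was 2.48 in Wv/Wv and 2.26 in wild type at 14 dpc, and 1.81 and 2.48 at 16 dpc, against medians over all genes between -0.05 and 0.05. The arrays of testis and ovary did not overlap, with testes higher, for 4 members in Wv/Wv and 7 in wild type at 14 dpc, where this held for 10.4% and 16.4% of all genes. At 16 dpc they did not overlap for 4 members in Wv/Wv and 6 in wild type, against 10.7% and 7.00% of all genes. Beside these members, 4 of 7 fetal Leydig cell genes were called higher and 1 lower in testes at 14 and 16 dpc in both genotypes, and 3 to 4 of 6 peritubular and smooth muscle genes were higher with 0 lower. Interstitial progenitor genes were higher for 1 to 2 of 7 with 0 lower in these 4 comparisons. Cyp11a1, the enzyme that starts steroid synthesis, averaged 12.48 ± 0.13 in Wv/Wv testes of 14 dpc and 4.64 ± 0.15 in Wv/Wv ovaries (SD, n = 2 and 3).

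**Figure D3:**
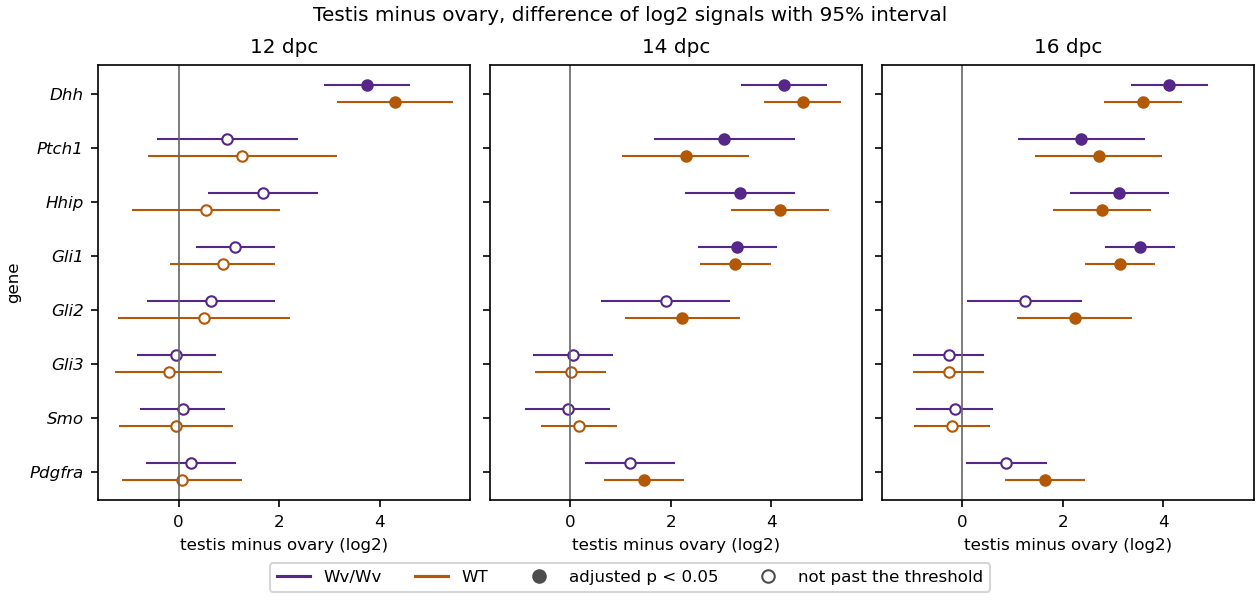
Difference of log2 signal between testis and ovary (horizontal axis) for each of the 8 genes (vertical axis) at 12, 14 and 16 dpc, in Wv/Wv and in wild type; points are limma estimates, lines 95% intervals, and filled points an adjusted p below 0.05. Dhh alone is filled at 12 dpc, Dhh, Ptch1, Hhip and Gli1 are filled in both genotypes at 14 and 16 dpc, and Gli2 and Pdgfra are filled in wild type.

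Whether the sex difference itself changed with genotype, or with age from 14 to 16 dpc, was tested directly. Its change from 12 to 14 dpc was not tested, so a call at 14 and none at 12 dpc does not show a change. The sex by genotype term (Wv/Wv difference minus wild-type difference) was called for 0 of 8 members at 12, 14 and 16 dpc, where 0%, 0.275% and 0.813% of all genes were called, and 0 members had an unadjusted p below 0.05 at any age (16 of all genes did at 12 dpc). For Gli2 and Pdgfra at 16 dpc the term was -0.99 ± 0.78 and -0.77 ± 0.54, so the missing calls in Wv/Wv do not amount to a shown difference between genotypes. The sex by age term from 14 to 16 dpc was called for 0 of 8 members in Wv/Wv and in wild type (0% and 0.126% of all genes). In wild type 1 member had an unadjusted p below 0.05, Hhip, at -1.39 ± 0.67, as did 4.03% of all genes.

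Across genotype, 0 of the 8 members were called by limma in any of the 6 comparisons of Wv/Wv with wild type. In testes of 12, 14 and 16 dpc 0.0330%, 0.594% and 0.484% of all genes were called, and in ovaries 0.0934%, 4.37% and 3.74%. At an unadjusted p below 0.05 there were 0, 0 and 1 members in testes (0.726%, 4.62% and 7.24% of all genes), and 0, 0 and 3 in ovaries (0.764%, 16.8% and 23.8%). The testis one was Smo at 16 dpc (0.84 ± 0.37, adjusted p = 0.667), where wild-type array 1 is the low one. In testes Dhh differed between mutant and wild type by -0.75 ± 0.53, 0.09 ± 0.42 and -0.03 ± 0.37 at 12, 14 and 16 dpc. The 95% interval was -0.77 to 0.95 at 14 dpc and -0.80 to 0.74 at 16 dpc, and at 12 dpc, with 1 wild-type array, -1.84 to 0.34. Ptch1, Hhip and Gli1 in testes differed by -0.41 ± 0.68, -0.21 ± 0.53 and 0.46 ± 0.38 at 14 dpc and by 0.46 ± 0.61, 0.21 ± 0.47 and 0.51 ± 0.34 at 16 dpc, none of them called. The germ cell list beside them was lower in Wv/Wv testes for 1, 6 and 5 of 6 genes at 12, 14 and 16 dpc.

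In ovaries of 16 dpc 3 members were above wild type on every Wv/Wv array, against 17.8% of all genes. Pdgfra read 12.30, 11.32 and 12.36 in Wv/Wv ovaries, against 10.77, 10.77 and 10.80 in wild-type ovaries, a difference of 1.21 ± 0.38 (adjusted p = 0.0776). Gli2 differed there by 1.29 ± 0.55 (adjusted p = 0.168) and Smo by 0.79 ± 0.37 (adjusted p = 0.196), and neither was called. Without Wv/Wv array 2 Pdgfra (1.55, adjusted p = 0.0245) and Gli2 (1.79, adjusted p = 0.0497) passed the test. All 3 wild-type arrays of this comparison were narrow-spread and 1 of the 3 Wv/Wv arrays was. With the array set as a term, Pdgfra was higher in Wv/Wv ovaries by 0.56 ± 0.13 (adjusted p = 0.00529) and Smo by 0.64 ± 0.13 (adjusted p = 0.00154) in limma, and Gli2 by 0.27 ± 0.18 was not called. At 14 dpc the same model gave 0.51 ± 0.12 for Pdgfra (adjusted p = 0.00460) and 0.48 ± 0.12 for Smo (adjusted p = 0.00641) in ovaries, against 0.18 ± 0.38 and 0.41 ± 0.37 without the term. With the term, 2 members were called at each of these ages, as were 3743 of all 18194 genes at 14 dpc and 3004 at 16 dpc. Whether members were called more often than other genes there was not tested. Germ cell genes were lower in Wv/Wv ovaries for 6 of 6 genes at 14 dpc and 5 of 6 at 16 dpc, and their part in these differences was not tested.

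**Figure D4:**
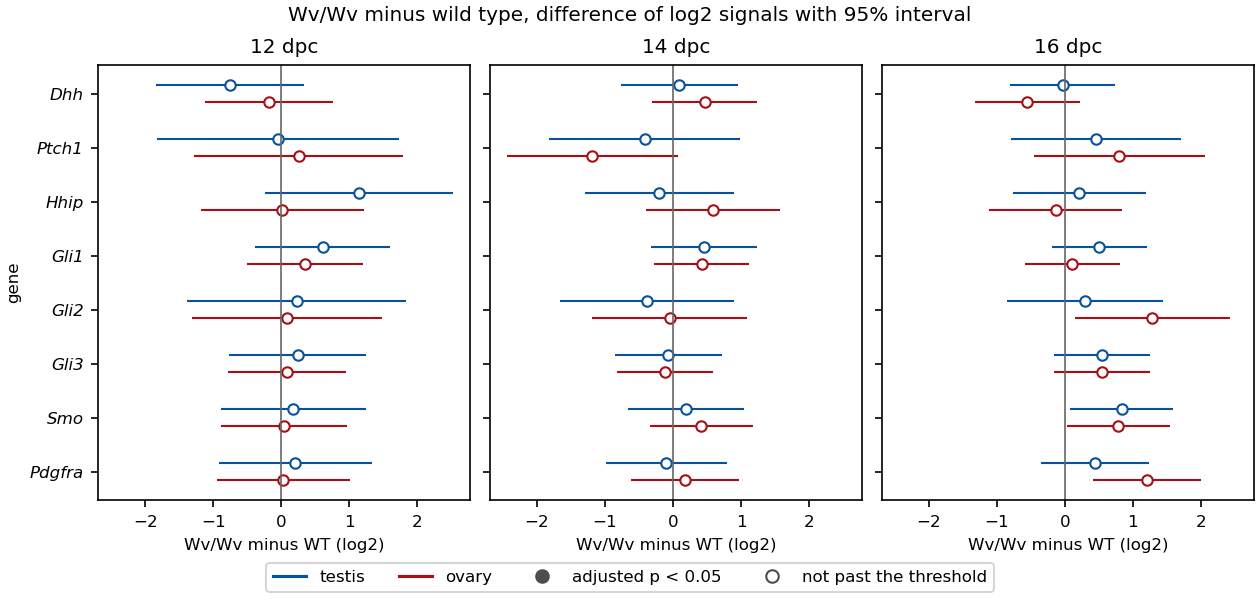
Difference of log2 signal between Wv/Wv and wild type (horizontal axis) for each of the 8 genes (vertical axis) in testes and in ovaries at 12, 14 and 16 dpc; points are limma estimates and lines 95% intervals. No point is filled, since no adjusted p was below 0.05, and the estimate farthest above 0 is that of Gli2 in ovaries at 16 dpc (1.29).

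Gli1 was lower in older ovaries. Between 12 and 16 dpc Gli1 fell by 1.65 ± 0.38 log2 units in Wv/Wv ovaries (adjusted p = 0.0117) and by 1.41 ± 0.38 in wild-type ovaries (adjusted p = 0.0246). It was the only 1 of 8 members called in Wv/Wv ovaries, where 1.47% of all genes were called lower. In wild-type ovaries 2 of 8 members were called, both lower, where 4.67% of all genes were. The second was Gli2, at -2.0 ± 0.62 (adjusted p = 0.0486). All wild-type ovary arrays of 16 dpc were narrow-spread and none of 12 dpc was, and with the array set as a term the wild-type differences were -1.27 ± 0.41 for Gli1 (adjusted p = 0.0480) and -0.47 ± 0.21 for Gli2 (adjusted p = 0.165). That term is estimated from the other groups. Gli2 was not called under 7 of 12 other settings. The Gli1 call in Wv/Wv was lost without array 1 of 12 dpc (-1.2, adjusted p = 0.381), and that in wild type without array 1 of 12 dpc (-0.71, adjusted p = 0.371), without array 1 or 3 of 16 dpc, and when arrays were centred on housekeeping genes (-0.84, adjusted p = 0.131), which puts the median difference of all genes at 0.54 there. Gli1 on the 12 dpc ovary arrays was 7.71 and 6.81 in Wv/Wv and 7.61 and 6.21 in wild type. The mean of the mesonephros and tubule genes on the same arrays was 8.74, 8.16, 8.49 and 7.29, and on ovary arrays of 16 dpc it was 7.34 to 7.41 in Wv/Wv and 6.89 to 6.96 in wild type. The part of that tissue in the fall of Gli1 was not tested.

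In testes 0 of 8 members were called by limma between 12 and 16 dpc, where 5.39% of all genes were called in Wv/Wv and 1.65% in wild type. At an unadjusted p below 0.05 there were 2 of 8 in each genotype (14.7% of all genes in Wv/Wv and 10.3% in wild type). In Wv/Wv these were Gli1 (0.77 ± 0.34) and Gli3 (-0.82 ± 0.34), and in wild type Hhip (1.66 ± 0.67) and Gli3 (-1.13 ± 0.48). With the array set as a term, Pdgfra was higher at 16 than at 12 dpc by 0.96 ± 0.12 in Wv/Wv testes (adjusted p = 3.79e-06) and by 0.87 ± 0.18 in wild-type testes (adjusted p = 0.00277). In that model Gli3 was lower by 0.63 ± 0.16 in Wv/Wv testes (adjusted p = 0.00880), and Hhip was higher by 2.16 ± 0.63 in wild-type testes (adjusted p = 0.0398), against a single 12 dpc array.

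The other probe sets of the same genes were read as a check. The second Dhh probe set was dimmer, with a mean of 5.62 over the arrays, and gave testis minus ovary differences of 1.70 and 1.87 at 14 dpc in Wv/Wv and wild type, both called. At 12 dpc it gave 1.6 in Wv/Wv (adjusted p = 0.049) and 1.88 in wild type (adjusted p = 0.165), the second not called. The 3 other Hhip probe sets were higher in testes by 2.07 to 2.52 in Wv/Wv and by 2.64 to 3.05 in wild type at 14 dpc, all called. For Ptch1 the second probe set gave 1.80 in Wv/Wv and 2.12 in wild type at 14 dpc, both called, while the third, with a mean of 5.28 below the low-signal limit, gave 0.12 and 0.04. The second Gli2 probe set was higher in testes by 1.48 in Wv/Wv and 1.6 in wild type at 14 dpc (adjusted p = 0.0076 and 0.00074), and by 1.18 and 1.27 at 16 dpc, so it passed the test in Wv/Wv where the first did not. For Pdgfra, 1 of the 2 others was called in Wv/Wv at 16 dpc, at 1.18 (adjusted p = 0.0046). No other probe set of Gli3 or Smo was called between the sexes.

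**Figure D5:**
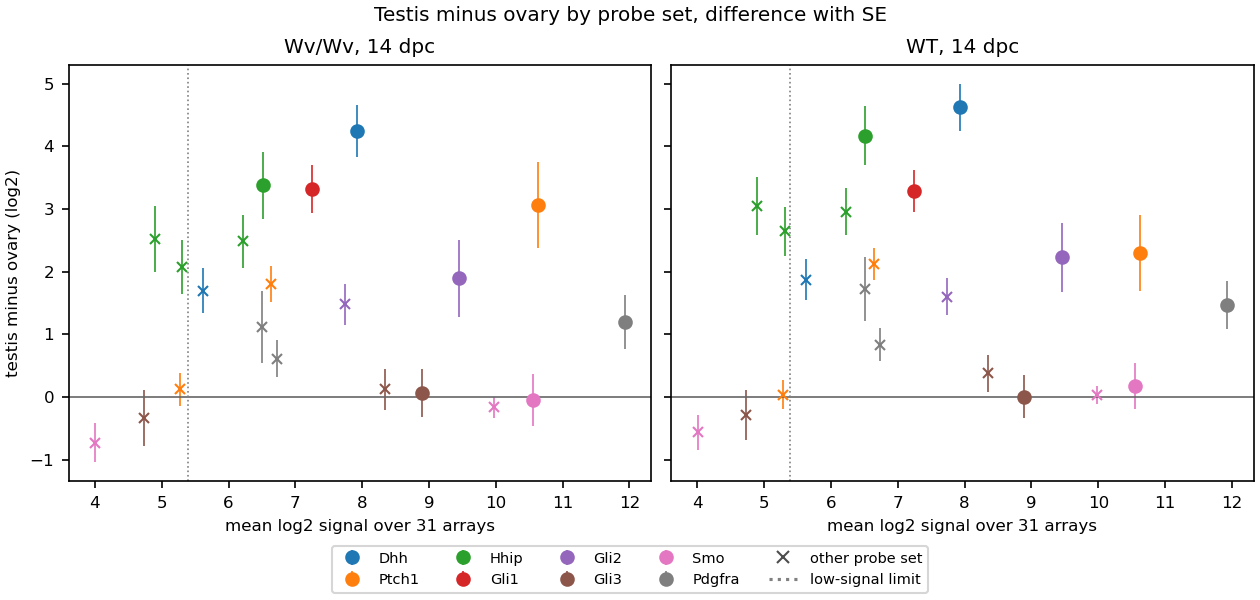
Difference of log2 signal between testis and ovary at 14 dpc (vertical axis, with SE) against the mean log2 signal over 31 arrays (horizontal axis) for all 21 probe sets of the 8 genes, in Wv/Wv and in wild type; circles are the probe sets used and crosses the others. The Hhip crosses stand between 2.07 and 3.05, and the crosses left of the dotted limit include a Ptch1 probe set at 0.12 and 0.04.

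Of 7 genes for ligands and their processing, 1 was called lower in testes at 14 dpc and 3 at 16 dpc in Wv/Wv, and 1 at each age in wild type, with 0 higher. Of all genes 1.36% and 3.17% were called lower at those ages in Wv/Wv, and 2.76% and 5.14% in wild type. Scube2, which helps release hedgehog from cells, was lower in testes of 16 dpc by -1.95 in Wv/Wv (adjusted p = 0.00065) and -1.29 in wild type (adjusted p = 0.022). Disp1, the transporter that exports the ligand, differed by -0.75 at 14 dpc and -0.91 at 16 dpc in Wv/Wv (adjusted p = 0.020 and 0.00068), and by -0.51 and -0.09 in wild type, which were not called. Scube3, of the same family as Scube2, was called at -0.78 in Wv/Wv at 16 dpc and at -0.78 in wild type at 14 dpc. The other hedgehog ligands were not called: Ihh was above the low-signal limit on 1 array and Shh differed by 0.15 ± 0.83 in Wv/Wv and 0.65 ± 0.73 in wild type at 14 dpc.

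Among 4 measured co-receptors, Boc was lower in testes by -1.01 at 14 dpc and -0.91 at 16 dpc in Wv/Wv (adjusted p = 0.0017 and 0.00083) and by -0.77 at 14 dpc in wild type (adjusted p = 0.0049). Boc was also higher in Wv/Wv than in wild-type ovaries, by 0.75 ± 0.17 at 14 dpc (adjusted p = 0.0090) and 0.64 ± 0.17 at 16 dpc (adjusted p = 0.036). The array sets were unevenly spread over these groups, with all wild-type ovary arrays of 16 dpc narrow-spread. Boc was not read with the array set as a term. Of 13 genes for intracellular transduction, 1 was called between the sexes, the kinase gene Stk36 in Wv/Wv at 16 dpc (-0.82 ± 0.19, adjusted p = 0.0074 in limma). In that comparison 3.17% of all genes were called lower. Of 9 genes that respond to hedgehog in other tissues, Bmp4, a BMP ligand, was higher in wild-type testes of 14 dpc by 1.48 (adjusted p = 0.0060 in limma). There 3.17% of all genes were called higher. Ccnd1, a cyclin of the G1 phase, was lower in wild-type testes of 16 dpc by -0.69 (adjusted p = 0.034), where 5.14% of all genes were called lower. None of the 9 was called in Wv/Wv, where 671 of all 18194 genes were called at 14 dpc and 1266 at 16 dpc. Of the PDGF ligands and second receptor, Pdgfa was higher in Wv/Wv testes of 16 dpc by 1.78 (adjusted p = 0.00091). Pdgfb was higher in Wv/Wv testes of 16 dpc by 0.63 and in wild-type testes by 0.77 at 14 dpc and 0.80 at 16 dpc. Pdgfc, Pdgfd and Pdgfrb were not called.

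The genes whose pattern was most like that of Dhh over the 12 group means were Mmd2 (Pearson r = 0.990), Gdnf (0.990), Cst9 (0.989), Tesc (0.985) and Eif2s3y (0.984), the last a gene of the Y chromosome. Nearest to Ptch1 were Ralgps2 (0.985), Rcan1 (0.976), Stox2 (0.973), Elovl6 (0.970) and Enc1 (0.968). These were taken from 14254 genes whose highest group mean was above the low-signal limit, and the 12 means share arrays and a split between testes and ovaries. Among the members, r over the same means was 0.95 for Ptch1 with Gli2, 0.92 for Hhip with Gli1 and for Gli2 with Pdgfra, and 0.91 for Ptch1 with Gli1. Dhh gave 0.82 with Ptch1, 0.89 with Hhip and 0.88 with Gli1, and -0.19 with Gli3 and -0.09 with Smo.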

How the data were processed

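RNA of 31 fetal mouse gonad samples was labelled with biotin and hybridised to Affymetrix 3′ expression arrays, 1 sample per array, per the labels' protocols. The authors deposited log2 signals of 45101 probe sets, made with RMA (per the submitters' processing notes). RMA as usually run normalises between arrays, so an overall shift of RNA content cannot be read from these values. The SD of all log2 signals still differed between the 2 array sets (1.77 to 2.18 and 2.33 to 2.39), so the arrays do not share 1 distribution. No RMA version is given in the sources used here. Precision depends on the number of arrays, since there is no read depth.

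Names came from the annotation table of the platform (34958 with 1 gene symbol, 932 with several, 9211 not listed). The brightest probe set by mean stood for each gene, which left 18194 genes. Sex, age and genotype as labelled gave the groups. limma 3.58.1 in R 4.3.3 (lmFit, eBayes) fitted 1 mean per group over 31 arrays, with 19 residual degrees of freedom, and p-values were adjusted by Benjamini-Hochberg over all genes within each of 21 comparisons. The single wild-type testis array at 12 dpc was taken to vary like the others. The low-signal limit is the 40th percentile of all values, not a detection call. The model was tested on simulated data, and no result of that test is given or relied on here. Promoter letters were searched in Python 3.11.15.

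The members, gene lists, tests and other settings were chosen with earlier results of these data known. The text names all members, the called genes of the pathway lists in comparisons of testis with ovary (at most 4 per list), and the 5 genes most like Dhh and Ptch1. Other settings were the array set (SD of log2 signals) as a term without wild-type testis 16 dpc array 1, each array set alone, array weights, dim genes left out, cyclic loess, housekeeping centring, the replicate number as a block, only the arrays compared, other probe sets and each array left out. Of 27 pairs of arrays within groups the lowest SD of difference was 0.179, and none was taken for a duplicate.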

Additional observations from a re-analysis of the deposited data

Results flagged for a closer look

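The sex difference of Stk36, a kinase of the hedgehog transduction list, differed between genotypes at 16 dpc by a test of the difference itself. On the arrays Stk36 read 5.26, 5.5 and 5.61 in Wv/Wv testes, against 6.20, 6.14 and 6.49 in Wv/Wv ovaries, and 6.29, 6.28 and 5.89 in wild-type testes, against 5.75, 5.63 and 5.76 in wild-type ovaries. The sex by genotype term was -1.26 ± 0.27 (adjusted p = 0.0238 in limma, where 0.813% of all genes were called). The Wv/Wv difference was -0.82 ± 0.19 and the wild-type difference 0.44 ± 0.19, which alone was not called (adjusted p = 0.177). All wild-type ovary arrays of 16 dpc were narrow-spread, while each other group of that age held both sets. The term is thus partly mixed with the array set. The other settings were read for the members and not for Stk36, whose readings lie near the low-signal limit of 5.39, the lowest below it.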

How the results depend on the processing

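Of 2697 values of single members under other settings, 2539 stayed on their side of the threshold, 106 came to pass it, 42 ceased to and 10 turned sign with the value called in at least 1 setting. Sign changes of values called in neither setting are not counted. With the array set as a term, members called became 6 for testis minus ovary in Wv/Wv at 14 and at 16 dpc (6 and 6 with cyclic loess, 6 and 5 with housekeeping centring), 2 for Wv/Wv minus wild type in ovaries at 14 and at 16 dpc, and for 16 minus 12 dpc 2 in testes of either genotype, 2 for Wv/Wv ovaries and 1 for wild-type ovaries. Among the 21 other arrays alone they became 3 for testis minus ovary in Wv/Wv at 12 dpc, 3 for Wv/Wv minus wild type in ovaries at 14 dpc, and for 16 minus 12 dpc 2 in Wv/Wv testes, 2 in wild-type testes and 3 in Wv/Wv ovaries. The 14 dpc Wv/Wv ovaries and the 12 dpc wild-type testes had 1 array each there, assumed to vary like the other groups. Among narrow-spread arrays alone they became 2 for Wv/Wv minus wild type in testes at 16 dpc and 1 for sex by genotype at 16 dpc, with 1 array in each testis group and in Wv/Wv ovaries.

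Array weights raised most counts: testis minus ovary to 4 in Wv/Wv at 12 dpc, 8 in Wv/Wv at 16 dpc and 2 in wild type at 12 dpc; Wv/Wv minus wild type to 1 in testes at 12 dpc, 1 in ovaries at 14 dpc and 6 in ovaries at 16 dpc; 16 minus 12 dpc to 6 in Wv/Wv testes, 4 in wild-type testes, 6 in ovaries of either genotype; sex by genotype at 16 dpc to 5 and sex by age in wild type to 5. Counts over all genes moved too: Wv/Wv minus wild type in ovaries at 16 dpc called 680 genes, against 3004 with the array set as a term, 2556 with cyclic loess, 1500 with housekeeping centring and 12584 with array weights. With cyclic loess the counts of members were 1 and 2 for Wv/Wv minus wild type in ovaries at 14 and 16 dpc, and for 16 minus 12 dpc 2 in Wv/Wv testes and 4 in wild-type ovaries. With housekeeping centring they were 1 and 1 in those ovaries and 2 for 16 minus 12 dpc in Wv/Wv testes. With only the arrays compared, testis minus ovary gave 0 in Wv/Wv at 12 dpc, 0 in wild type at 12 dpc and 3 in wild type at 16 dpc, and 16 minus 12 dpc gave 0 for Wv/Wv ovaries and 6 for wild-type ovaries. The causes were not tested.

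Gli2 turned sign in Wv/Wv minus wild-type ovaries at 14 dpc among the 21 other arrays (0.79, with a single Wv/Wv array). Smo did so in testis minus ovary of wild type at 16 dpc. It was called there with array weights (0.57) and without wild-type testis 16 dpc array 1 (0.60, with -0.60 without array 2 as the other end of the range). With array weights the values that turned sign and were called were also sex by genotype at 16 dpc for Gli3 (-0.62) and Smo (-0.74), 16 minus 12 dpc for Pdgfra in Wv/Wv ovaries (0.30) and Ptch1 in Wv/Wv testes (0.42), and sex by age in wild type for Gli3 (0.53) and Smo (0.42). The dim Ptch1 probe set turned sign in testis minus ovary of wild type at 16 dpc (-0.11) but was not called, unlike the probe set used.

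Leaving out 1 array at a time gave 3 to 6 members for testis minus ovary in Wv/Wv at 14 dpc, 3 to 4 at 16 dpc and 1 to 1 at 12 dpc, and in wild type 1 to 1, 3 to 6 and 5 to 7 at 12, 14 and 16 dpc. The count in wild type at 14 dpc was 3 without testis array 1 or without ovary array 1. It gave 0 to 2 for Wv/Wv minus wild-type ovaries at 16 dpc (2 without Wv/Wv array 2), 0 to 1 for 16 minus 12 dpc in ovaries of either genotype, and 0 to 0 elsewhere. The labels give groups the same replicate numbers. Every pair of same-numbered arrays correlated above 0.1 in 1 of 7 comparisons with 3 pairs, so the numbers were not taken to pair the samples. Over every comparison checked, those with fewer pairs included, r ran from -0.82 to 0.85. The 1 comparison was Wv/Wv minus wild type in testes at 16 dpc, where array 1 is narrow-spread in both groups and the block called 0 members. With the number as a block, the wild-type ovary count for 16 minus 12 dpc was 1, and no other count of members moved.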

Other observations

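The pathway genes given here for age were chosen after their values were seen. Scube2, which helps release hedgehog, was higher in ovaries of 16 than of 12 dpc by 2.71 ± 0.40 in Wv/Wv and 1.52 ± 0.40 in wild type (adjusted p = 0.00014 and 0.022 in limma). On the arrays Scube2 read 7.64, 6.86 and 8.05 in Wv/Wv ovaries of 16 dpc, against 4.79 and 4.83 at 12 dpc. All 12 dpc ovary arrays of both genotypes were below the low-signal limit for Scube2 (4.83 and 5.33 in wild type), so both differences are taken against a dim baseline. Boc, a co-receptor, was higher at 16 than at 12 dpc in Wv/Wv ovaries by 0.95 ± 0.19 (adjusted p = 0.004 in limma). Other genes of these lists went the other way. Lrp2, also a co-receptor, differed by -2.98 ± 0.39 in Wv/Wv ovaries, -2.11 ± 0.39 in wild-type ovaries and -1.61 ± 0.35 in Wv/Wv testes, all called. Its 16 dpc means in these groups, 4.64 to 4.65, lay below the low-signal limit. Scube3 differed by -1.18 ± 0.26 in wild-type ovaries and -1.31 ± 0.23 in Wv/Wv testes, both called. Bmp4 was lower at 16 dpc in ovaries, by -1.72 ± 0.37 in Wv/Wv and -1.85 ± 0.37 in wild type (adjusted p = 0.008 and 0.003). Ccnd1 was lower at 16 dpc by -1.52 ± 0.21 in Wv/Wv testes, -1.68 ± 0.29 in wild-type testes and -1.23 ± 0.23 in Wv/Wv ovaries, all called, and differed by -0.73 ± 0.23 in wild-type ovaries (adjusted p = 0.053), which was not called. In wild-type ovaries all arrays of 16 dpc were narrow-spread, so array set and age cannot be told apart there by a within-set value.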
